A study of Mus musculus with 12 samples.

Results

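The genes described here are 8 imprinted genes with known roles in the control of growth, namely Dlk1, Meg3, Igf2, H19, Mest, Peg3, Plagl1 and Grb10. They were read from 15 probe sets, chosen by array identifier, with earlier results of these data already known, out of 45101 on the Affymetrix Mouse 430 2.0 array. RNA came from male FVB mice aged 7 to 11 months. The non-transgenic group held 4 lungs. The other groups came from 4 mice carrying wild-type human cyclin E under the human surfactant protein C promoter, which drives expression in the distal lung epithelium: 4 adjacent normal lungs and 4 lung adenocarcinomas, each identified by gross pathology. The methods describe the adjacent tissue as normal by histopathology. Every tumor therefore carried the transgene, and the adjacent lung carried it too. The labels name neighbouring tissue codes for tumor and adjacent lung of the same replicate number, so the same number was read as the same mouse. Each array is bulk tissue, in which fewer cells of a type and less RNA per cell cannot be told apart.

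An imprinted gene is expressed mainly from a single parental copy, which is set by DNA methylation laid down in egg or sperm. Many such genes work in fetal growth and are turned down after birth in mouse organs, the lung among them. Dlk1 (paternally expressed, a membrane protein related to Notch ligands that restrains adipocyte differentiation) and Meg3 (maternally expressed, a long non-coding RNA) are neighbours on chromosome 12 under a shared control region. Igf2 (paternally expressed, a growth factor) and H19 (maternally expressed, a non-coding RNA) are neighbours on chromosome 7 and share enhancers. Mest encodes a hydrolase-like protein, Peg3 and Plagl1 encode zinc finger proteins, and Grb10 encodes an adaptor that restrains signalling by insulin and insulin-like growth factor receptors.

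RefSeq (build GRCm38.p6) placed no protein-coding gene between Dlk1 and Meg3, and none between H19 and Igf2. Promoter sequences covering 250 bases before to 50 bases after a start are shown for Dlk1 and Meg3, which varied most among the mice, and for Mest, which had the smallest adjusted p in tumors. Capitals mark TGCCGC, the hexamer bound by the imprint-protecting factor ZFP57, or TATAAA, each on either strand. In the Meg3 entry the stretch TTTATATAAA holds TATAAA on both strands, in overlap. The Dlk1 entry (chr12:109452573-109452872, plus strand, 9 CG dinucleotides) holds neither motif, the first Meg3 entry (chr12:109540746-109541045, plus strand, 13 CG dinucleotides) holds both, and the Mest entry shown (chr6:30737800-30738099, plus strand, 17 CG dinucleotides) holds TGCCGC at 2 places. It is the second of 3 Mest entries and was picked because it holds the motif, which the first (chr6:30733256-30733555, 8 CG dinucleotides) lacks, while the third nearly coincides with the second. The second Meg3 entry holds neither motif.
Dlk1: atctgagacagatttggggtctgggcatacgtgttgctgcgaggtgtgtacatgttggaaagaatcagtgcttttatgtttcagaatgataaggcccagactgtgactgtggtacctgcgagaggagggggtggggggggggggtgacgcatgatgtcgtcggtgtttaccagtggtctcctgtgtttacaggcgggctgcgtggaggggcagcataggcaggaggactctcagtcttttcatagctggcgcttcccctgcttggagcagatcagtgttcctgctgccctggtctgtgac
Meg3: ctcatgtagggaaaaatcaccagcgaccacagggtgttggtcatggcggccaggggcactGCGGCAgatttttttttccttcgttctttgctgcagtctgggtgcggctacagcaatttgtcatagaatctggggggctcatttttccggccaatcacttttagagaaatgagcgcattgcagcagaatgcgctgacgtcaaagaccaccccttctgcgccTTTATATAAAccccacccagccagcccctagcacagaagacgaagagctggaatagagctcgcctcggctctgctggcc
Mest: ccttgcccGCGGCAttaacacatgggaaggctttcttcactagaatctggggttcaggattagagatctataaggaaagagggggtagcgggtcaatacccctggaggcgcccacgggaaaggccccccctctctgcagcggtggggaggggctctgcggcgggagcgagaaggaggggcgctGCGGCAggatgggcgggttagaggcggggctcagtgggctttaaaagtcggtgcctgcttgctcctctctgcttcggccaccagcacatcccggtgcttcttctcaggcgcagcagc
Of 32851 mouse promoter entries of the same length, 11.6% held TGCCGC, 13.6% held TATAAA, and the median number of CG dinucleotides was 7. Entries were matched by symbol for 7 of the 8 genes, all but H19, and 6 of their 14 entries, some of which overlap, held TGCCGC. These are matches of letters, and binding was not measured.

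Several of the genes also contain microRNAs, whose levels were not analysed here. The mature 5p forms from inside Meg3 (miR-770), Mest (miR-335), Igf2 (miR-483) and H19 (miR-675) are given from RefSeq with the seed, bases 2 to 8, in capitals. They are shown because they lie within the bounds of these genes. The 8 mature forms of both arms had 8 different seeds.
miR-770-5p: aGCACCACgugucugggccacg
miR-335-5p: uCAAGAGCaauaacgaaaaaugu
miR-483-5p: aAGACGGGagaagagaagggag
miR-675-5p: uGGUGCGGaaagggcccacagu

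Values are deposited log2 signals, so a difference of 1 is a change of signal by a factor of 2. A probe set was tested where it exceeded the median of the table, 4.18, in at least 4 of the 12 arrays, which 11 of the 15 did. The other 4 (H19, Meg3 1428765_AT, Peg3 1417356_AT and Grb10 1425457_A_AT) are given by their values only. Dlk1 and Meg3 1436713_S_AT passed with no non-transgenic lung above the median, and Meg3 1428764_AT with 1. Their passing therefore already reflects the transgenic arrays. Tumor 2 and adjacent lung 3 stood apart over all probe sets. Tumor 2 had a mean correlation of 0.852 with the other tumors, where the remaining tumors had 0.924 to 0.933, and adjacent lung 3 had 0.922, where the remaining adjacent lungs had 0.961 to 0.964. A score was taken over 927 probe sets called higher and 2297 called lower in tumor than in non-transgenic lung. Each differed by at least 1 in log2 signal and was picked on the arrays of these same groups, the members left out. With non-transgenic lung at 0 and tumor at 1, tumor 2 lay at 0.502 and the other tumors at 1.15 to 1.18. The tissue labels were not checked against marker genes, since gene names were paired here only with the 15 probe sets.

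Of the 11 tested probe sets, 8 passed in tumor against adjacent lung (limma, adjusted p under 0.05), 2 higher and 6 lower, where 28.7% of all 23538 probe sets tested passed, 13.2% higher and 15.6% lower. In tumor against non-transgenic lung 7 passed, 4 higher and 3 lower, against 32.5% of all, 15.6% higher and 16.9% lower. In adjacent against non-transgenic lung 0 passed, against 0% of all, with 1 of the 11 and 3.55% of all at an unadjusted p under 0.05. In the F test for any difference across the 3 groups 8 passed, against 28.6% of all. The 2 that rose against adjacent lung were Meg3 probe sets, and the 6 that fell belonged to Igf2, Mest, Peg3, Plagl1 and Grb10. The median difference of the 11 was -0.56 in tumor against adjacent lung, beside 0.07 over all probe sets tested. It was -0.35 in tumor against non-transgenic lung, beside 0.07, and 0.70 in adjacent against non-transgenic lung, beside 0.007. Several of the 11 belong to the same gene. Both tumor comparisons use the same 4 tumors, and the comparisons with adjacent and with non-transgenic lung are therefore not independent. With the mouse as a replicate block in the 8 transgenic arrays, 4 of the 11 passed in tumor against adjacent lung, where 13.9% of all did: Igf2, Mest, Plagl1 and Peg3 1417355_AT. With the mouse as a random block over the 12 arrays 9 of the 11 passed, where 30.5% of all did.

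**Figure D1:**
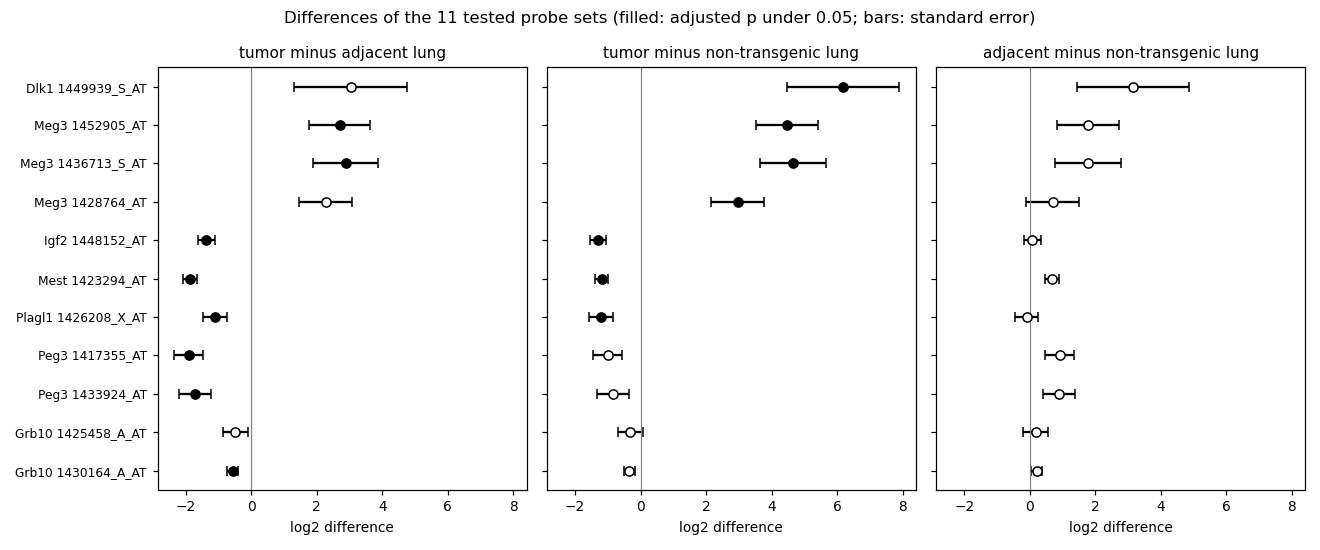
Difference in log2 signal (x axis) for each of the 11 tested probe sets (y axis) in 3 comparisons of 4 arrays with 4, with bars for the standard error and filled points where the limma adjusted p was under 0.05. Dlk1 and Meg3 lie to the right in both tumor panels with long bars, Igf2, Mest and Plagl1 lie to the left in both with short bars, and no point is filled in adjacent against non-transgenic lung.

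Dlk1 was low in every non-transgenic lung and spread widely in the transgenic mice. Its signal was 3.60, 3.16, 3.53 and 2.94 in non-transgenic lungs 1 to 4, and 3.41, 8.75, 4.66 and 8.98 in adjacent lungs 1 to 4. In tumors 1 to 4 it was 12.26, 7.90, 13.08 and 4.70. Adjacent lungs 2 and 4 thus lay far above the other lungs, and tumor 4 was the lowest tumor although its adjacent lung was the highest. All 4 tumors lay above all 4 non-transgenic lungs, but tumors and adjacent lungs overlapped.

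The mean Dlk1 signal was 3.31 ± 0.31 (SD, n = 4) in non-transgenic lung, 6.45 ± 2.84 (SD, n = 4) in adjacent lung and 9.48 ± 3.92 (SD, n = 4) in tumor. Tumor exceeded non-transgenic lung by 6.18 (SE 1.72, limma adjusted p = 0.0175), a factor of 72.3. That call was lost without tumor 1 (5.25, limma adjusted p = 0.0547) or without tumor 3 (4.98, limma adjusted p = 0.0547). Against adjacent lung the difference was 3.03 (SE 1.72, limma adjusted p = 0.202), and it passed only without tumor 4 (4.63, limma adjusted p = 0.0464), among 23 alternatives with adjusted p from 0.0464 to 0.465. Adjacent lung exceeded non-transgenic lung by 3.14 (SE 1.72), which did not pass (unadjusted p = 0.092 in limma). The fit shares its estimate of spread over the 3 groups, so the SE of this comparison also reflects the tumors. The SE of both tumor comparisons in turn reflects the non-transgenic lungs, whose SD was the smallest, and may be too low.

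Within mice, as paired by replicate number, Dlk1 moved in opposite directions. Tumor minus adjacent lung was 8.85 in mouse 1 and 8.42 in mouse 3, but -0.85 in mouse 2 and -4.29 in mouse 4. Few probe sets on the array spread as much. The range among the adjacent lungs was 5.58 for Dlk1, and 3 of 23538 probe sets had a wider one, while the median range was 0.49. Among the tumors it was 8.38, and 1 probe set had a wider one, with a median of 0.69.

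**Figure D2:**
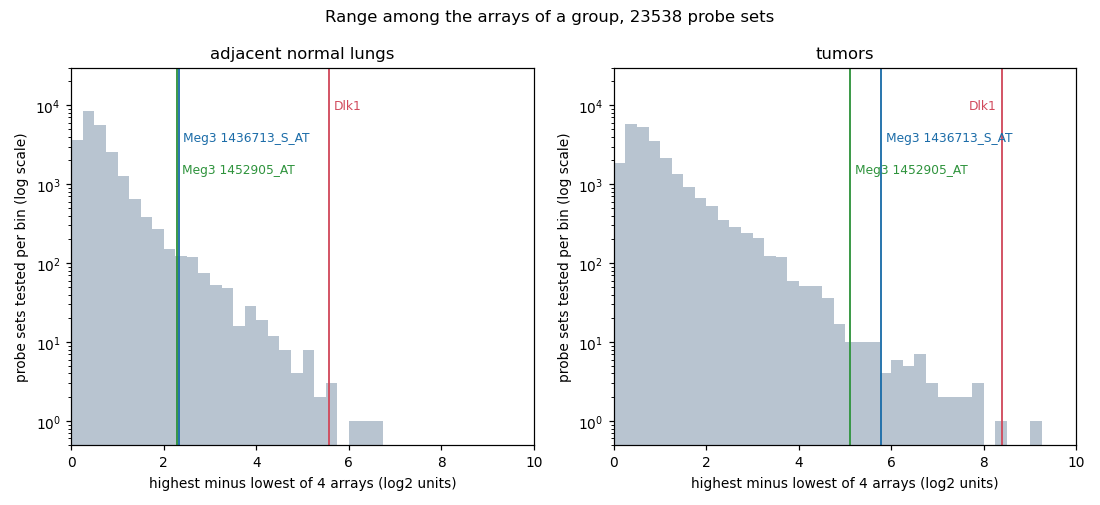
Number of tested probe sets (y axis, log scale) by the highest minus the lowest of 4 arrays in log2 units (x axis), for adjacent normal lungs at left and tumors at right, with lines at Dlk1 and at Meg3 1436713_S_AT and 1452905_AT. Dlk1 stands at the far right in both panels, at 5.58 and 8.38, and both Meg3 probe sets lie in the right tail among the tumors, at 5.78 and 5.11.

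Meg3, the neighbour of Dlk1, followed a related but not identical order of arrays. The probe set 1452905_AT read 5.41, 5.69, 5.37 and 4.62 in non-transgenic lungs 1 to 4, and 6.14, 8.18, 5.90 and 7.97 in adjacent lungs 1 to 4. It read 9.39, 6.63, 11.74 and 11.21 in tumors 1 to 4. Adjacent lungs 2 and 4 were again the highest lungs, every adjacent lung lay above every non-transgenic lung, and tumor 2 lay below both adjacent lungs 2 and 4. Tumor 4, low in Dlk1, was among the highest in Meg3.

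Meg3 1436713_S_AT read 3.29, 3.44, 3.38 and 2.88 in non-transgenic lungs 1 to 4. It read 3.80, 5.88, 4.30 and 6.13 in adjacent lungs, and 8.03, 4.24, 10.02 and 9.33 in tumors. Adjacent lungs 2 and 4 were the highest lungs here too, with lung 4 above lung 2, and tumor 2 lay below adjacent lungs 2, 3 and 4. Over the 12 arrays, which fall into 3 groups, the correlation of both probe sets was 0.99, given as a description. The dimmer Meg3 1428764_AT read 3.63, 3.69, 4.45 and 3.95 in non-transgenic lungs 1 to 4, 4.24, 4.89, 4.42 and 4.95 in adjacent lungs, and 5.86, 4.28, 9.07 and 8.38 in tumors. Its tumors 1, 3 and 4 lay above every lung, and tumor 2 lay among the lungs. The untested 1428765_AT ranged from 2.37 to 3.15 over the 8 lungs and read 3.80, 2.70, 6.25 and 5.62 in tumors 1 to 4, so its tumors 1, 3 and 4 also lay above all lungs.

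Meg3 rose in tumor against non-transgenic lung by 4.47 (SE 0.94, limma adjusted p = 0.00423) at 1452905_AT, a factor of 22.2. The rise was 4.66 (SE 1.01, limma adjusted p = 0.00499) at 1436713_S_AT and 2.97 (SE 0.81, limma adjusted p = 0.0163) at 1428764_AT. The last of these was lost without tumor 4 (2.47, limma adjusted p = 0.0506), while the other two passed in all their alternatives (22 and 21).

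Against adjacent lung the Meg3 calls were close to the threshold. The difference was 2.70 (SE 0.94, limma adjusted p = 0.0487) at 1452905_AT and 2.88 (SE 1.01) at 1436713_S_AT, whose limma adjusted p of 0.0499968 stood at the threshold. Meg3 1428764_AT gave 2.27 (SE 0.81, limma adjusted p = 0.0545). The call at 1452905_AT held in 7 of 23 alternatives, with adjusted p from 0.000585 to 0.152, and that at 1436713_S_AT in 6 of 22, with adjusted p from 0.000118 to 0.145. Each was lost without any single array other than tumor 2, the adjusted p then lying between 0.0521 and 0.141 for 1452905_AT and between 0.054 and 0.145 for 1436713_S_AT. Without tumor 2 the differences were 3.73 and 4.10, and 1428764_AT also passed (3.14, limma adjusted p = 0.000979). With no filter both calls were lost (limma adjusted p = 0.0714 for 1452905_AT and 0.0732 for 1436713_S_AT). Both were lost too with just the 8 arrays compared in the fit (limma adjusted p = 0.113 and 0.118). With the mouse as a replicate block in the 8 transgenic arrays the adjusted p was 0.152 for 1452905_AT and 0.143 for 1436713_S_AT, and with the number as a replicate block in all 12 arrays it was 0.0782 and 0.0683, while 1428764_AT then passed (0.0463). With the mouse as a random block all 3 passed (0.0437 for 1452905_AT, 0.0443 for 1436713_S_AT and 0.0472 for 1428764_AT).

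Within mice, Meg3 1452905_AT was higher in tumor than in adjacent lung in mice 1, 3 and 4, by 3.25, 5.85 and 3.24. In mouse 2 the difference was -1.55, and this was the mouse whose tumor stood apart over all probe sets. In mouse 4 Meg3 was therefore higher and Dlk1 lower in the tumor than beside it. Over the 12 arrays the correlation of Dlk1 with Meg3 was 0.74 at 1436713_S_AT, 0.73 at 1452905_AT and 0.58 at 1428764_AT. These were at ranks 228, 294 and 2267 of the 23537 other probe sets by closeness to Dlk1. Seen from Meg3 1452905_AT, Dlk1 was at rank 3310 of 23537. The 12 arrays fall into 3 groups, so these correlations are a description.

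**Figure D3:**
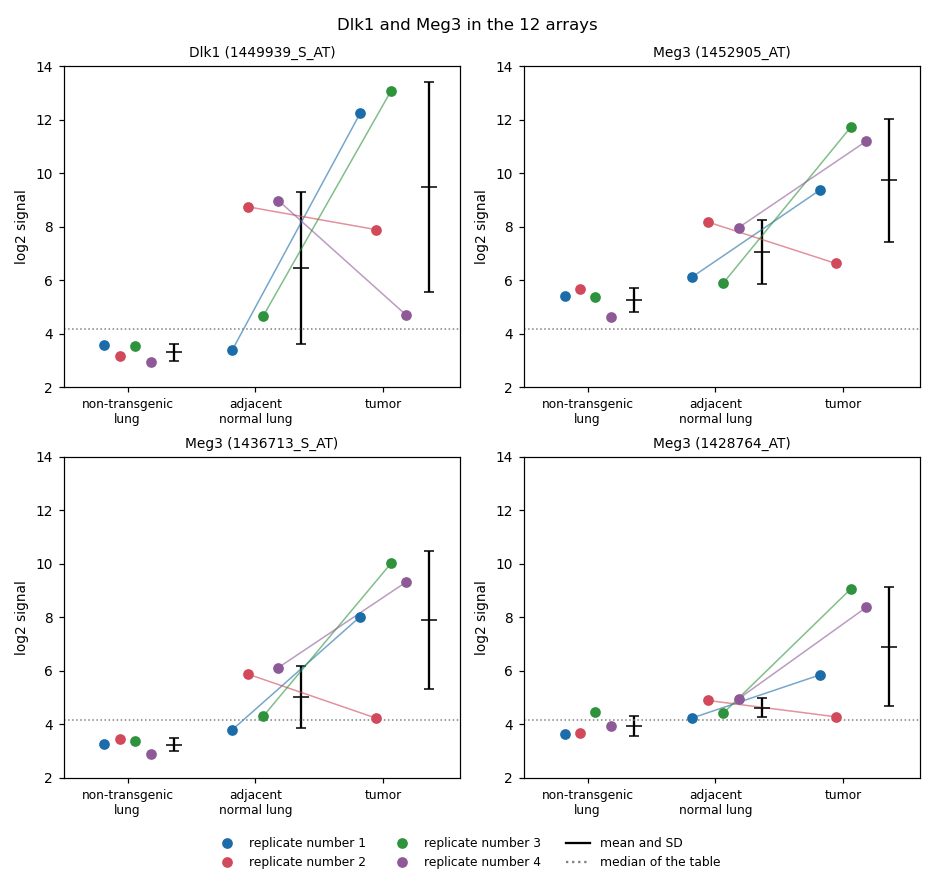
Log2 signal (y axis) of Dlk1 and of 3 Meg3 probe sets by tissue group (x axis), with a point for each array coloured by replicate number, lines joining adjacent lung and tumor of the same number, a black bar for mean and SD (n = 4), and a dotted line at the table median of 4.18. In Dlk1 the lines of mice 1 and 3 climb to 12.26 and 13.08 while those of mice 2 and 4 descend, and in Meg3 only the line of mouse 2 descends.

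The shared high signal of Dlk1 and Meg3 in adjacent lungs 2 and 4 was picked out after the values were seen, and is a description. The lower of these 2 lungs exceeded the highest of the other 6 lungs, non-transgenic and adjacent, by 4.09 in Dlk1, and no other probe set of the 23538 had a larger gap. The gap was 1.83 for Meg3 1452905_AT, which 3 probe sets exceeded, Dlk1 among them. It was 1.58 for Meg3 1436713_S_AT, which 5 exceeded, Dlk1 and Meg3 1452905_AT among them. In all, 9 probe sets had a gap above 1, and these 3 were among them. The others had no gene names here and may include further probe sets of the same genes. On the score from non-transgenic lung to tumor the adjacent lungs 1 to 4 lay at -0.00325, 0.0977, 0.113 and 0.153, and the non-transgenic lungs at -0.041 to 0.095. Adjacent lungs 2, 3 and 4 lay above every non-transgenic lung, lung 4 the furthest and lung 2 by little. The probe sets of the score were picked on the non-transgenic lungs and tumors, so this order of the lungs is a description and not a test. Lung 3 was the adjacent lung that stood apart over all probe sets. The part of tumor cells in the adjacent tissue was not tested.

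Igf2 fell in the tumors, in contrast to Dlk1 and Meg3. It read 5.76, 5.82, 5.71 and 6.20 in non-transgenic lungs 1 to 4, 6.13, 5.94, 6.24 and 5.49 in adjacent lungs 1 to 4, and 4.72, 5.25, 4.17 and 4.20 in tumors 1 to 4. Every tumor lay below every lung, and tumor 2 was the nearest to them. The difference was -1.37 (SE 0.25, limma adjusted p = 0.00211) against adjacent lung and -1.29 (SE 0.25, limma adjusted p = 0.00258) against non-transgenic lung, factors of 2.58 and 2.44. Both calls held in every alternative tried (22 and 21), with adjusted p up to 0.0252. Adjacent and non-transgenic lung differed by 0.08 (SE 0.25), and this small difference turned to -0.016 without adjacent lung 3.

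H19, which shares its control region with Igf2, was below the table median on all 12 arrays and was not tested. It read 2.84, 3.67, 3.62 and 3.53 in non-transgenic lungs 1 to 4, 3.68, 3.57, 4.08 and 2.98 in adjacent lungs, and 2.76, 2.78, 2.74 and 3.37 in tumors. The groups overlapped.

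Mest gave the smallest adjusted p of the 11 in both tumor comparisons. It read 5.13, 5.86, 5.63 and 5.91 in non-transgenic lungs 1 to 4, 6.43, 6.38, 6.05 and 6.39 in adjacent lungs 1 to 4, and 4.23, 4.08, 4.89 and 4.59 in tumors 1 to 4. The 3 groups did not overlap, with tumor lowest and adjacent lung highest. Tumor was lower than adjacent lung by a factor of 3.65 (log2 difference -1.87, SE 0.21, limma adjusted p = 0.000138) and than non-transgenic lung by a factor of 2.28 (-1.19, SE 0.21, limma adjusted p = 0.00173). Both calls held in all alternatives (22 and 21), the replicate block included, with adjusted p up to 0.0137. Adjacent exceeded non-transgenic lung by 0.68 (SE 0.21), which was the single difference of the 11 with an unadjusted p under 0.05 in that comparison (0.00779 in limma) and did not pass after adjustment.

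Of the 15 probe sets, 4 had every adjacent lung above every non-transgenic lung and 0 the reverse: both brighter Meg3 probe sets, Mest and Peg3 1417355_AT. Over all 45037 probe sets that are not controls 2.73% had such a gap upward and 1.41% downward. For tumor against adjacent lung 4 of the 15 lay wholly below and 0 wholly above, beside 9.13% of all probe sets below and 6.57% above. For tumor against non-transgenic lung 3 lay above and 4 below, beside 9.65% and 9.97% of all.

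Peg3, a zinc finger protein, fell against adjacent lung at both tested probe sets. The probe set 1417355_AT read 5.23, 5.28, 5.06 and 5.19 in non-transgenic lungs 1 to 4, 6.03, 7.03, 5.96 and 5.37 in adjacent lungs 1 to 4, and 2.92, 5.01, 5.00 and 3.84 in tumors 1 to 4. The groups did not overlap, although tumors 2 and 3 came close to the lowest non-transgenic lung. The other, 1433924_AT, read 4.66, 4.95, 4.58 and 4.93 in non-transgenic lungs, 5.94, 6.45, 4.94 and 5.31 in adjacent lungs, and 2.64, 5.04, 4.83 and 3.30 in tumors. Here tumor 2 overlapped the adjacent lungs, and tumors 1 and 4 again were the lowest.

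Tumor minus adjacent lung was -1.91 (SE 0.44, limma adjusted p = 0.00855) at Peg3 1417355_AT, and this held in all 22 alternatives that tested it, with adjusted p up to 0.037. At 1433924_AT it was -1.71 (SE 0.49, limma adjusted p = 0.0224), which held in 16 of 22, with adjusted p from 0.0015 to 0.0736, and was lost with the mouse as a replicate block (0.0736). It was also lost without adjacent lung 1 (-1.61, limma adjusted p = 0.0599) or 2 (-1.45, limma adjusted p = 0.0659), and without tumor 1 (-1.27, limma adjusted p = 0.0567) or 4 (-1.49, limma adjusted p = 0.0675). With just the 8 arrays compared in the fit it was lost too (limma adjusted p = 0.0681). Against non-transgenic lung the differences of -0.997 (SE 0.44, limma adjusted p = 0.105) and -0.83 (SE 0.49, limma adjusted p = 0.217) did not pass. Without tumor 2 both did, at -1.27 (limma adjusted p = 0.0324) and -1.19 (limma adjusted p = 0.0496). Tumor minus adjacent lung was below 0 in all 4 mice at 1417355_AT, from -3.10 in mouse 1 to -0.96 in mouse 3. The untested 1417356_AT ranged from 3.04 to 4.00 over the 8 lungs and from 2.53 to 3.27 over the tumors.

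Plagl1 encodes a transcription factor that can raise the expression of other imprinted genes in the mouse. Its probe set, 1426208_X_AT, carries a suffix marking probes that may also match other transcripts. It read 8.91, 9.64, 9.80 and 9.40 in non-transgenic lungs 1 to 4, 9.54, 8.62, 9.40 and 9.79 in adjacent lungs 1 to 4, and 8.38, 7.15, 8.82 and 8.60 in tumors 1 to 4. Every tumor lay below every non-transgenic lung, tumor 2 the furthest, while tumor 3 overlapped the lowest adjacent lung.

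The Plagl1 difference was -1.20 (SE 0.36, limma adjusted p = 0.0243) against non-transgenic lung. It was lost without non-transgenic lung 2 (-1.14, limma adjusted p = 0.0613), 3 (-1.08, limma adjusted p = 0.0678) or 4 (-1.21, limma adjusted p = 0.0511). Against adjacent lung it was -1.10 (SE 0.36, limma adjusted p = 0.0383), which held in 13 of 23 alternatives, with adjusted p from 0.0242 to 0.0974. That call was lost without adjacent lung 1, 3 or 4 (adjusted p = 0.0921, 0.0688 and 0.0974 in limma), without tumor 1 (0.0655) and without non-transgenic lung 2 or 4 (0.0517 and 0.0518). It was lost also with each array centred on its median (-0.98, limma adjusted p = 0.0535) and without tumor 2 and adjacent lung 3 together (-0.72, limma adjusted p = 0.0657). The call was lost too with just the 8 arrays compared in the fit (limma adjusted p = 0.0809) and with no filter (0.0548).

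Grb10 gave different results at its probe sets. The brightest, 1425458_A_AT, read 6.81, 7.14, 6.98 and 7.43 in non-transgenic lungs 1 to 4, 7.25, 7.11, 7.19 and 7.52 in adjacent lungs 1 to 4, and 7.78, 7.00, 5.46 and 6.88 in tumors 1 to 4. Tumor 1 lay above every lung and tumor 3 below every lung. The difference against adjacent lung was -0.48 (SE 0.37, limma adjusted p = 0.346), and that against non-transgenic lung, -0.31 (SE 0.37, limma adjusted p = 0.557), turned to 0.13 without tumor 3.

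The dimmer Grb10 1430164_A_AT read 3.86, 4.36, 4.33 and 4.45 in non-transgenic lungs 1 to 4, 4.26, 4.70, 4.55 and 4.35 in adjacent lungs, and 4.20, 3.94, 3.72 and 3.75 in tumors. All tumors lay below all adjacent lungs, near the table median. The difference of -0.56 (SE 0.17, limma adjusted p = 0.028) held in 14 of 22 alternatives, with adjusted p from 0.0196 to 0.099. It was lost with the arrays centred on their medians (-0.44, limma adjusted p = 0.0599) or normalized again by quantiles (-0.45, limma adjusted p = 0.0624), and with a replicate block (0.0515 in 12 arrays, 0.099 in 8). It was lost also without adjacent lung 2 (limma adjusted p = 0.0791) or 3 (0.054) and without tumor 3 (0.0816) or 4 (0.0761). Against non-transgenic lung the difference was -0.35 (SE 0.17, limma adjusted p = 0.134), which passed without non-transgenic lung 1 (-0.48, limma adjusted p = 0.048). The untested 1425457_A_AT lay between 2.45 and 3.69 on all arrays.

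**Figure D4:**
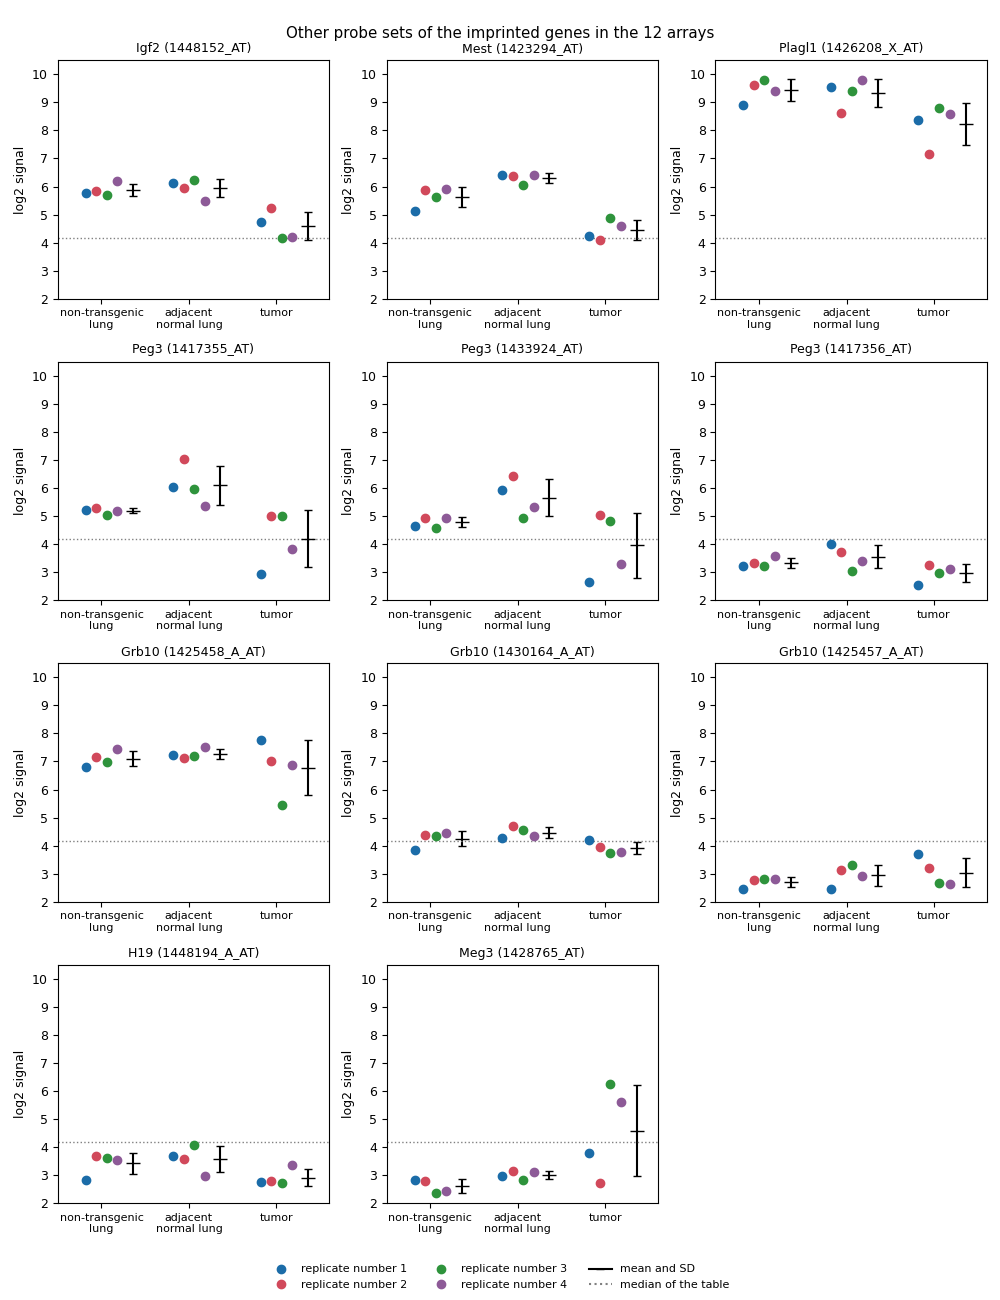
Log2 signal (y axis) of the remaining 11 probe sets by tissue group (x axis), with a point for each array coloured by replicate number, a black bar for mean and SD (n = 4), and a dotted line at the table median of 4.18. Tumor points of Igf2 and Mest lie below all lung points, Peg3 is low mainly in tumors 1 and 4, and H19 stays under the dotted line throughout.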

How the data were processed

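Total RNA of 12 samples was hybridised by the authors to Mouse 430 2.0 arrays, 4 in each of 3 groups. The deposited values are log2 signals made by robust multichip average according to the methods, while the submitters' processing notes name GCRMA, so the exact summary is not settled. Genome build, array batches and scan order were not given in the sources used here. Differences were tested with limma 3.58.1 in R 4.3.3 (lmFit and eBayes over the 3 groups, no block) on 23538 probe sets above the table median in at least 4 arrays, 52.3% of 45037 that are not controls. p-values were adjusted by Benjamini-Hochberg over all of them, with 0.05 as the threshold. All 15 probe sets were named by rule, whatever their values. The members and lists were chosen with earlier results of these data known. The fit was tested on simulated data. Gene names were available only for the 15 probe sets, so the 8 lists of related imprinted and growth genes and the 10 lists of cell type markers were not analysed here. The number of arrays limits the precision.

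Each array was left out in turn, and filters, normalization, floor, variance model, samples in the fit and pairing were varied, as given in the closing section. Leaving out tumor 2 and adjacent lung 3 together was chosen after seeing the data. Pairing rests on the tissue codes of the labels and on the design, which gives 4 transgenic mice for both tissues, and the methods count 12 independent samples. Deviations of same-numbered tumor and adjacent arrays from their group means correlated at -0.03, 0.098, 0.069 and 0.11 for pairs 1 to 4, and tumor 4 alone correlated best with its own number.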

Additional observations from a re-analysis of the deposited data

Results flagged for a closer look

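Within the 3 groups of 4 arrays, 4 of 45 sets of values had an array whose distance to its nearest neighbour took up more of the whole range than Dixon's 95% critical value allows. Chance alone marks about 1 in 20 such sets. H19 read 2.84 in non-transgenic lung 1 against 3.53 to 3.67 in the other non-transgenic lungs. H19 also read 3.37 in tumor 4 against 2.74 to 2.78 in the other tumors. Mest read 6.05 in adjacent lung 3, which stood apart over all probe sets, against 6.38 to 6.43 in the other adjacent lungs. Grb10 1425457_A_AT read 2.46 in non-transgenic lung 1 against 2.79 to 2.81 in the others. All but Mest lie under the median of the table. The wide spreads of Dlk1 and Meg3 were not marked, since there the arrays divide more evenly.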

How the results depend on the processing

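Of the comparisons of single probe sets under an alternative, 637 kept direction and side of the threshold, 62 lost the call, 12 gained it and 5 reversed. Counts of members passing are given with the share of all probe sets tested that passed under the same setting. In tumor against adjacent lung 8 of 11 passed (28.7% of all), 5 of 15 with no filter (15.6%), 2 of 4 with the filter at the 75th percentile of the table (33.2%), 4 when the fit held just the 8 arrays of the comparison (18.4%), 4 for the replicate block as mouse among those 8 (13.9%), 6 for the replicate block in 12 arrays (26.3%) and 9 for the mouse as a random block (30.5%). Leaving out single arrays gave 4 to 9, with shares from 19% to 45%. The 9 and the 45% were without tumor 2, and 5 or fewer passed without any adjacent lung, without tumor 1, 3 or 4, and without non-transgenic lung 2 or 4. In tumor against non-transgenic lung 7 of 11 passed (32.5%), 3 of 4 with the 75th percentile filter (34.7%), 7 with either the replicate block in 12 arrays (29.9%) or the random block (32.5%), and 6 to 9 without single arrays (22.8% to 46.8%, both highest without tumor 2). For any difference across the 3 groups 8 of 11 passed (28.6%), 3 of 4 with the 75th percentile filter (31.7%) and 5 to 8 without single arrays (17.6% to 44.2%), with 5 without non-transgenic lung 2, 3 or 4 or tumor 4 (23%, 23.5%, 23.6% and 18.5%). In adjacent against non-transgenic lung 0 passed in limma under every alternative tried. Only directions close to 0 reversed. Grb10 1425458_A_AT in tumor against non-transgenic lung ran from -0.64 to 0.13 without single arrays. Adjacent minus non-transgenic lung ran from -0.016 to 0.23 for Igf2, with -0.016 also without tumor 2 and adjacent lung 3, and from -0.28 to 0.14 for Plagl1, with 0.02 without non-transgenic lung 3. Fewer probe sets tested accounts for the lower counts at the 75th percentile filter, and the cause of the other losses was not tested. Dim probe sets limit H19, for which no array lay above the table median.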
